A study of Mus musculus with 4 samples.

Results

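*Sgk1*, *Rgs2*, *Wdfy1*, *Tgm2*, *Plk2* and *Casp2* are 6 genes that were chosen by their mRNA levels in these same libraries, as genes with higher levels in mutant than in WT luminal cells of the mouse mammary gland. They were taken by symbol from the 52636 genes of the table, and all 6 were found. Because the genes were selected on the difference between the genotypes, the differences below are a description and support nothing. Over all luminal cells *Sgk1*, *Rgs2* and *Wdfy1* differed by 1.5-fold or more, while *Tgm2*, *Plk2* and *Casp2* differed by less.

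The WT group was ErbB3+/+;MMTV-Cre and the mutant group was ErbB3V943R/V943R;MMTV-Cre, both on C57BL/6N and 6 weeks old, and both carried the MMTV-Cre transgene, which is active in mammary epithelium. In the mutant, Cre turns on an endogenous *Erbb3* allele whose product has arginine in place of a valine that ERBB3 needs to activate its partner kinase. Thoracic and abdominal glands of 3 mice per genotype were pooled, epithelial cells were enriched and sorted for luminal cells, and each pool was run as 2 droplet libraries, called A and B here. With 1 pool per genotype no test between the genotypes was possible, and the libraries of a pool show technical spread only.

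Of the 32439 cells, 18512 WT and 13687 mutant cells lay in clusters 1 to 11, which the authors labelled as luminal progenitor (LP, clusters 1 and 2), luminal intermediate (LI, cluster 3) and mature luminal (ML, clusters 4 to 11). The libraries held 30019745 to 38009351 unique molecular identifiers (UMIs, each 1 captured mRNA molecule), and a cell had a median of 3154 and 3677 UMIs in WT A and B and 3662 and 4027 in mutant A and B. Any 2 libraries shared 71 to 111 cell barcodes. *Erbb3* itself, a receptor pseudokinase gene, stood at 60.9 and 63.4 counts per 1000000 UMIs (CPM) in WT A and B and at 29.9 and 30.9 in mutant A and B. Tags from the 3′ end do not read the changed codon, so this level does not show the mutation. Per the study's methods, the engineered allele before Cre acts ends in a human growth hormone 3′ untranslated region. Whether alleles that Cre had not changed lowered the *Erbb3* tags was not tested.

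ERBB3 passes signals from neuregulins to its kinase partners and on to the PI3K pathway, and in the mammary gland it is known for a role in the growth of ducts at puberty. SGK1 is a serine/threonine kinase related to AKT that acts downstream of PI3K and is known for its control of ion transport. RGS2 ends signalling of G proteins, chiefly Gq, and its gene, like *Sgk1* and *Plk2*, is known as one that cells switch on quickly after a stimulus. WDFY1 is a lipid-binding protein of early endosomes that also serves Toll-like receptors, TGM2 is an enzyme that cross-links proteins, PLK2 is a Polo-like kinase and a target of p53, and CASP2 is an initiator caspase of the PIDDosome complex.

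Promoter sequences from RefSeq on GRCm38.p6 were matched for 4 of the 6 genes by symbol (*Sgk1*, *Rgs2*, *Plk2* and *Casp2*), and *Wdfy1* and *Tgm2* were not matched. The 250 bases before the start are shown for the genes of this set that are known as quickly induced, 5′ to 3′ in the direction of the gene. Capitals mark TGACG on either strand (read as CGTCA on the other), which is the core of the cAMP response element. The windows lie at chr10:21994416-21994665 on the plus strand for *Sgk1* (the last of its 6 windows), chr1:144004150-144004399 on the minus strand for *Rgs2* and chr13:110394794-110395043 on the plus strand for *Plk2*.
Sgk1: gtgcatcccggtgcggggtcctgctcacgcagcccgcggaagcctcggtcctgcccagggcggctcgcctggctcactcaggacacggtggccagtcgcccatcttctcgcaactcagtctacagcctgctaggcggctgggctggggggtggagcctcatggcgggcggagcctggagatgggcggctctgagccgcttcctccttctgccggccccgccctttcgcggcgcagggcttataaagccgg
Rgs2: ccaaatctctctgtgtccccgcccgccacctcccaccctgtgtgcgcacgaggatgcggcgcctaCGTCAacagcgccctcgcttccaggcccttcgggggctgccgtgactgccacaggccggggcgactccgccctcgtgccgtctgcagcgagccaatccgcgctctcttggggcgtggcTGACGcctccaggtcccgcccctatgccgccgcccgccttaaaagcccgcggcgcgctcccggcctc
Plk2: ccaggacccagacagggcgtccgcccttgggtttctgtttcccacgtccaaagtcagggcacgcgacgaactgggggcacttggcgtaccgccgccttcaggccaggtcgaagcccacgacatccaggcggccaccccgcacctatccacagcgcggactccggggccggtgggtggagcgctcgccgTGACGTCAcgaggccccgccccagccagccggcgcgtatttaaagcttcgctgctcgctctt
The *Plk2* window held the whole element TGACGTCA, which contains 2 overlapping TGACG matches that begin 62 and 59 bases before the start, and 1.55% of the 32851 windows of this length held TGACGTCA on either strand. The *Rgs2* window held 2 TGACG matches, 185 and 67 bases before the start, and 17.8% of all windows held at least 1. The *Sgk1* window printed here held none, and 1 of its other 5 windows held 1. *Casp2*, with no TGACG in its window, held 2 CCAAT matches, a motif of 33.8% of all windows, and *Rgs2* held 1. TATAAA, the TATA box, stood in the printed *Sgk1* window and in 12.4% of all windows. These matches describe letters and not sites in use.

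*Sgk1* (ENSMUSG00000019970, GRCm38 chromosome 10 from 21882184 to 21999903) stood at 131 and 138 CPM in the WT libraries and at 202 and 218 CPM in the mutant libraries over all luminal cells. The mutant libraries lay above both WT libraries, by 1.57-fold, a log2 ratio of 0.65 (0.61 to 0.68). This and the other intervals are 95% intervals of counting error, from the exact conditional binomial distribution. *Rgs2* (ENSMUSG00000026360, chromosome 1 from 143999338 to 144004161) stood at 43.2 and 45.7 CPM in WT and at 91.7 and 95.2 CPM in the mutant. Its log2 ratio of 1.07 (1.01 to 1.13), or 2.10-fold, was the largest of the 6. The level of *Wdfy1* (ENSMUSG00000073643, 79702262 to 79776143 of chromosome 1) was 37.2 and 37.9 CPM in WT and 60.1 CPM in both mutant libraries, a log2 ratio of 0.68 (0.61 to 0.75). For these 3 genes the gap between the genotypes was larger than the gap between the libraries of either pool.

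*Tgm2* (ENSMUSG00000037820, chromosome 2 from 158116402 to 158146436) stood at 1506 and 1464 CPM in WT and at 1796 CPM in both mutant libraries. The mutant libraries were higher by 1.21-fold, a log2 ratio of 0.27 (0.26 to 0.29). *Plk2* (ENSMUSG00000021701, chromosome 13 from 110395046 to 110400844) stood at 454 and 472 CPM in WT and at 478 and 505 CPM in the mutant. Its groups did not overlap, but the gap between them was smaller than that within either pool, and the log2 ratio was 0.09 (0.06 to 0.11). *Casp2* (ENSMUSG00000029863, chromosome 6 from 42264985 to 42282508) stood at 18.9 and 19.2 CPM in WT and at 21.1 and 21.7 CPM in the mutant, a log2 ratio of 0.17 (0.06 to 0.28). *Wdfy1* overlaps *Mrpl44* and *Tgm2* overlaps *Rprd1b* on the opposite strand, and whether the counting used strand is not given in the sources used here.

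A gene was called where its CPM differed by 1.5-fold or more, its UMIs reached 50 in the genotype where it was higher, and both libraries of that genotype lay beyond both of the other. Over all luminal cells 3 of the 6 genes were called higher in the mutant, *Sgk1*, *Rgs2* and *Wdfy1*, while 3.27% of the 16304 genes with enough UMIs were called higher and 1.2% lower. Since the genes were chosen by this difference, nothing is read from that count. The median log2 ratio of the 6 genes was 0.46 and that of all genes with enough UMIs was 0.02.

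In LP cells, which hold the precursors of the milk-producing lineage, only *Wdfy1* of the 6 genes was called higher, against 2.23% of all genes. *Wdfy1* stood at 23.0 and 18.7 CPM in WT LP cells and at 31.9 and 38.9 CPM in mutant LP cells, a log2 ratio of 0.78 (0.51 to 1.06). *Sgk1* was at 73.8 and 88.1 CPM in WT and 99.0 and 103 CPM in the mutant there, a log2 ratio of 0.31 (0.17 to 0.46), which was 0.20 without WT library A and 0.45 without WT library B. *Rgs2* stood lower, with 27.5 and 29.7 CPM against 33.2 and 34.0 CPM and a log2 ratio of 0.23 (−0.02 to 0.48), which was 0.11 with cells thinned to 1000 UMIs and 0.37 without the cells with the most immediate-early UMIs. The libraries of the genotypes overlapped for *Plk2* and *Casp2* in LP cells.

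In LI cells *Sgk1* and *Rgs2* were called higher, as were 2.83% of all genes. *Rgs2* had its largest ratio among the 3 classes there, with 38.3 and 30.5 CPM in WT and 83.8 and 82.5 CPM in the mutant and a log2 ratio of 1.27 (1.06 to 1.49), an interval that overlapped that of ML cells. *Sgk1* stood at 97.3 and 117 CPM in WT and at 166 and 175 CPM in the mutant, a log2 ratio of 0.67 (0.54 to 0.80), which fell under the 1.5-fold limit without WT library A (0.54) and with cells thinned to 1000 UMIs (0.52). *Wdfy1* missed the limit, with 36.9 and 36.3 CPM in WT against 56.7 and 51.1 CPM in the mutant and a log2 ratio of 0.56 (0.34 to 0.78). It was past the limit without mutant library B (0.63) and with thinned cells (0.78). *Tgm2* also had its largest ratio of the 3 classes in LI cells, at 0.40 (0.36 to 0.44).

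In ML cells, the hormone-sensing lineage, *Sgk1*, *Rgs2* and *Wdfy1* were called higher, and 2.88% of all genes were called higher and 1.58% lower. *Rgs2* stood at 46.2 and 50.02 CPM in WT and at 104 and 109 CPM in the mutant, a log2 ratio of 1.15 (1.08 to 1.21). *Sgk1* and *Wdfy1* each had a log2 ratio of 0.71, with intervals of 0.66 to 0.75 and 0.63 to 0.79. Without cluster 11 the ratio of *Wdfy1* in ML cells was 0.55, under the 1.5-fold limit. *Tgm2* at 0.30, *Casp2* at 0.15 and *Plk2* at 0.13 were below the limit.

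**Figure D1:**
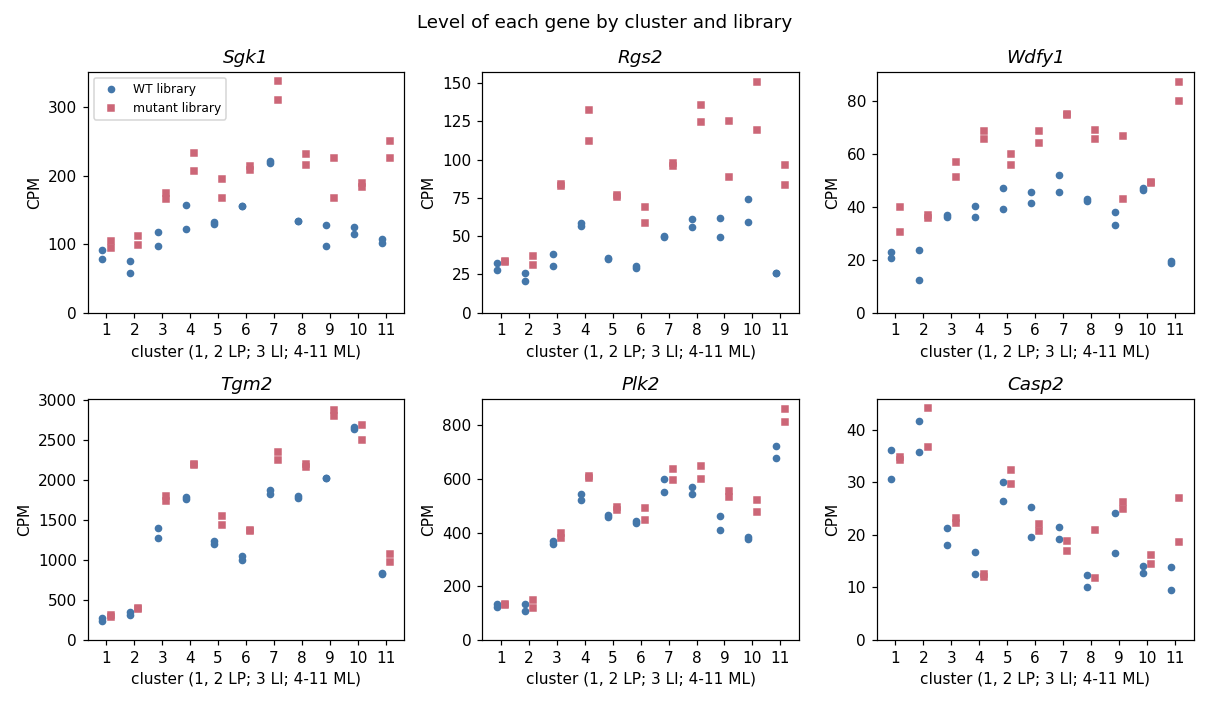
Level of each of the 6 genes in CPM (y axis) in clusters 1 to 11 (x axis), with 1 circle per WT library and 1 square per mutant library. The mutant squares lie above both WT circles in all 11 clusters for *Sgk1*, *Rgs2* and *Wdfy1*, in 10 for *Tgm2*, in 8 for *Plk2* and in 4 for *Casp2*.

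By cluster, both mutant libraries lay above both WT libraries in 11 of 11 clusters for *Sgk1*, *Rgs2* and *Wdfy1*, as the plot of levels by cluster shows. *Sgk1* was called higher in 7 clusters, with log2 ratios from 0.22 in cluster 1 to 1.20 in cluster 11. *Rgs2* was called higher in 9 clusters and ranged from 0.14 in cluster 1 to 1.8 in cluster 11. *Wdfy1* was called higher in 7 clusters and ranged from 0.08 in cluster 10 to 2.13 in cluster 11. *Tgm2* and *Plk2* were called in no cluster, although the mutant libraries lay above in 10 and 8 of them. *Casp2* was called higher in cluster 11 alone of the 11 clusters, its libraries were higher in 4 clusters and lower in clusters 4 and 7, and they overlapped in the other 5.

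The counts of called genes by cluster are set beside the share of all genes called higher in the same cluster. In cluster 1 only *Wdfy1* was called (2.16% of all genes), in cluster 2 *Sgk1* and *Wdfy1* (1.79%) and in cluster 3, which is the whole LI class, *Sgk1* and *Rgs2* (2.83%). *Sgk1*, *Rgs2* and *Wdfy1* were all called in cluster 4 (2.54%) and cluster 8 (2.17%). *Rgs2* alone was called in cluster 5 (1.96%), and *Rgs2* and *Wdfy1* were called in cluster 6 (2.11%) and cluster 7 (2.41%). *Sgk1* and *Rgs2* were called in cluster 9 (2.7%), where *Wdfy1* and *Casp2* had too few UMIs, and in cluster 10 (2.39%). In cluster 11 *Sgk1*, *Rgs2*, *Wdfy1* and *Casp2* were called, against 0.937% of the 8112 genes with enough UMIs. That cluster held 2863 WT and 670 mutant cells. The UMI minimum there stood for a higher CPM in mutant than in WT cells. Weak genes therefore entered the 8112 mainly if they were lower in the mutant, which lowers the 0.937%. None of the 6 genes was called lower in any cluster.

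**Figure D2:**
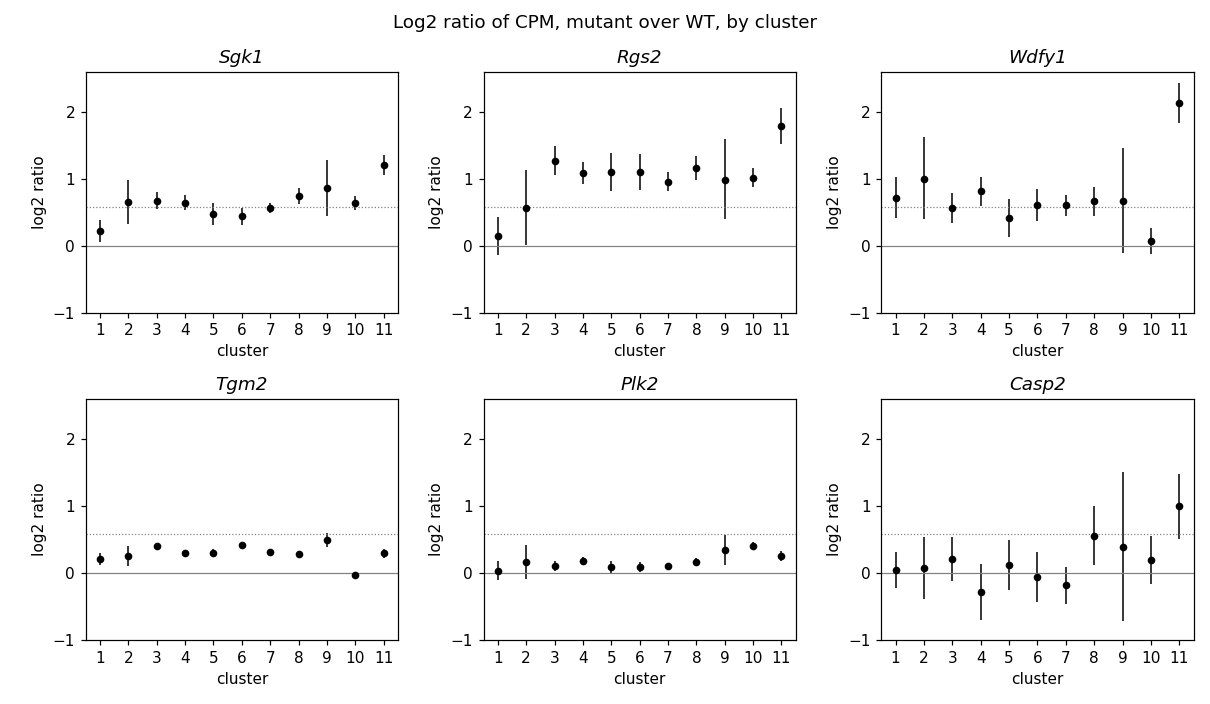
Log2 ratio of CPM, mutant over WT (y axis), in clusters 1 to 11 (x axis) for each gene, with bars for the 95% interval of counting error, a solid line at 0 and a dotted line at 1.5-fold. *Sgk1*, *Rgs2*, *Wdfy1* and *Casp2* have their highest point in cluster 11, at 1.20, 1.8, 2.13 and 1.01, while *Tgm2* peaks in cluster 9 and *Plk2* in cluster 10.

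In cluster 10 the libraries overlapped for *Tgm2*, at 2664 and 2641 CPM in WT and 2507 and 2685 CPM in the mutant. *Wdfy1* was at 47.1 and 46.4 CPM in WT and at 48.9 and 49.5 CPM in the mutant there, a log2 ratio of 0.08 (−0.12 to 0.27), while *Rgs2* in the same cells had a log2 ratio of 1.02 (0.88 to 1.16). *Plk2*, with 384 and 375 CPM against 477 and 523 CPM, had its largest ratio in cluster 10, at 0.40 (0.34 to 0.46). *Tgm2* had its largest ratio in cluster 9, with 2023 and 2022 CPM in WT against 2881 and 2806 CPM in the mutant and a log2 ratio of 0.49 (0.39 to 0.59). Cluster 9 cells were shallow, with medians of 1532 UMIs in WT and 1355 in the mutant.

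Cluster 11 held 2863 WT and 670 mutant cells. *Wdfy1* stood at 19.5 and 18.9 CPM in its WT cells and at 79.8 and 87.2 CPM in its mutant cells, a 4.38-fold difference and a log2 ratio of 2.13 (1.84 to 2.43) from 180 and 202 UMIs. *Rgs2* stood at 26.2 and 25.9 CPM against 83.5 and 96.2 CPM, a log2 ratio of 1.8 (1.53 to 2.07). *Sgk1* stood at 107 and 101 CPM against 226 and 250 CPM, a log2 ratio of 1.20 (1.05 to 1.35). All 3 were far apart between the genotypes relative to their libraries. *Casp2* rested on 109 and 56 UMIs, with 13.9 and 9.53 CPM against 18.6 and 27.1 CPM, and the 4 pairs of a mutant and a WT library gave log2 ratios from 0.42 to 1.51. Cells were put into clusters by the authors from the expression of their genes, so membership in cluster 11 does not stand apart from the levels compared. The 6 fibroblast markers summed to 34.4 and 38.3 CPM in the WT libraries of cluster 11 and to 22.3 and 8.27 CPM in the mutant ones. Nearly all of that sum was *Dcn*, at 33.5 and 37.5 CPM against 21.3 and 8.27 CPM. No other gene of the list had enough UMIs, so this is a difference of *Dcn* and not of the list. Its part in these ratios was not tested.

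**Figure D3:**
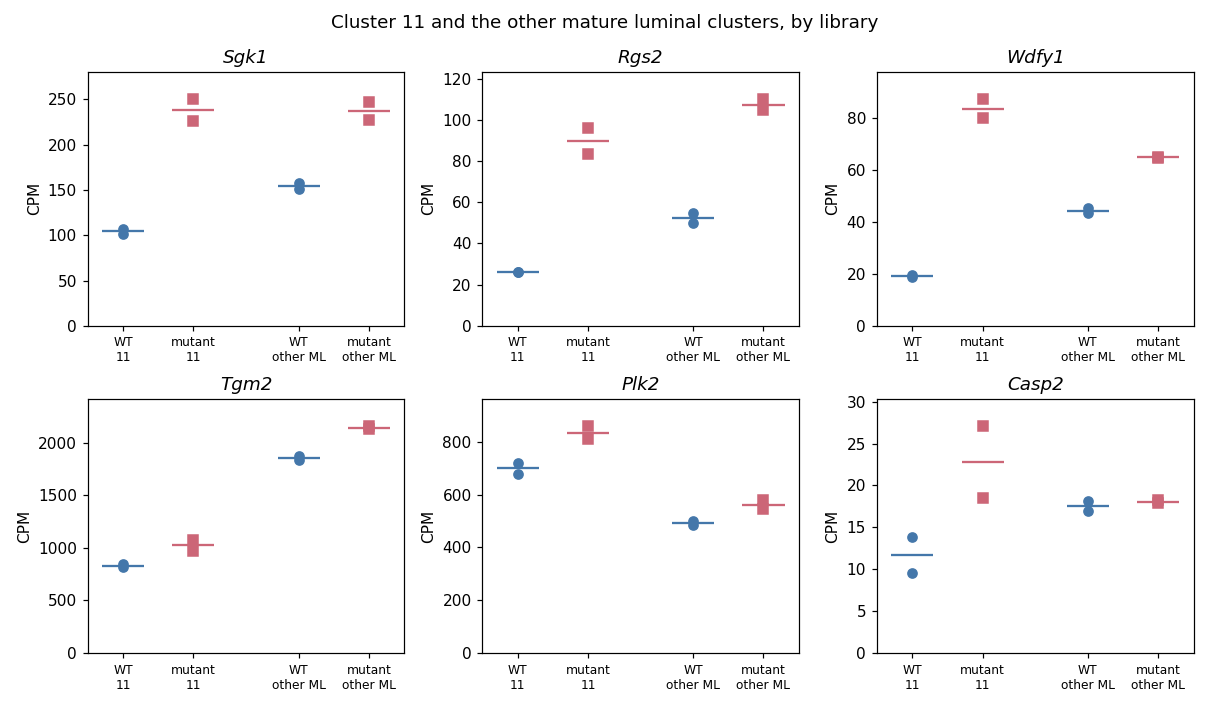
Level in CPM (y axis) of each gene in cluster 11 and in clusters 4 to 10 together (other ML), with 1 circle per WT library, 1 square per mutant library and a line at the mean of the libraries. *Wdfy1* is lowest in WT cluster 11 and highest in mutant cluster 11, while *Tgm2* is lower and *Plk2* higher in cluster 11 than in the other ML clusters in both genotypes.

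The ratio in cluster 11 was set beside that in the other ML clusters together. *Wdfy1* had a log2 ratio of 0.55 (0.46 to 0.63) outside cluster 11, and the ratio in cluster 11 was larger by 1.59 (log-normal 95% interval of counting error, 1.29 to 1.89). For *Rgs2* the ratio outside was 1.03 (0.96 to 1.10) and that in cluster 11 was larger by 0.77 (0.49 to 1.04). For *Sgk1* these were 0.63 (0.58 to 0.67) and 0.58 (0.42 to 0.73). For each of these 3 genes every pair of libraries gave a larger ratio in cluster 11 than any pair did outside it. *Casp2* had a log2 ratio of 0.04 (−0.10 to 0.18) outside cluster 11, with a difference of 0.96 (0.48 to 1.45). The ratios of *Tgm2* and *Plk2* were close to those outside, with differences of 0.09 (0.02 to 0.15) and 0.07 (−0.01 to 0.14). These differences rest on 1 pool per genotype and were not tested.

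Within WT cells, cluster 11 had less *Sgk1* than the other ML clusters, at 104 against 154 CPM, a log2 ratio of −0.57 (−0.66 to −0.47). Within mutant cells the levels were 240 and 238 CPM, a log2 ratio of 0.01 (−0.11 to 0.13). *Rgs2* in cluster 11 was at 26.0 against 52.6 CPM in WT (log2 ratio −1.01, −1.21 to −0.82), and at 90.5 against 108 CPM in the mutant (−0.25, −0.45 to −0.05). *Wdfy1* in mutant cluster 11 was higher than in the other mutant ML clusters, at 83.9 against 64.8 CPM, a log2 ratio of 0.37 (0.16 to 0.58), the reverse of its order in WT cells. *Tgm2* kept its order, at a log2 ratio of −1.16 (−1.19 to −1.13) in WT cells and −1.07 (−1.13 to −1.02) in mutant cells, and so did *Plk2*, at 0.51 (0.47 to 0.55) and 0.57 (0.51 to 0.64).

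The order of the 11 clusters differed among the genes. *Sgk1* was highest in cluster 7 in both genotypes, at 220 CPM in WT and 325 CPM in the mutant, and lowest in the LP clusters, with 66.5 CPM in WT cluster 2 and 100 CPM in mutant cluster 1. Its highest level was 3.31 times its lowest in WT and 3.25 times in the mutant, and the libraries of neighbours in the order overlapped in 5 of 10 steps in WT and 8 of 10 in the mutant. *Rgs2* was highest in cluster 10, at 67.1 and 136 CPM, followed in both genotypes by clusters 8, 4, 9 and 7, although the libraries of neighbours overlapped among those first 5 clusters in both genotypes. *Wdfy1* was at 49.1 CPM in WT cluster 7, where its libraries overlapped those of cluster 10, and was highest in cluster 11 in the mutant, at 83.9 CPM, where its libraries lay apart from those of the next cluster.

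*Tgm2* had the widest range, 10.2 times in WT and 9.50 times in the mutant. It ran from 259 CPM in WT cluster 1 to 2652 CPM in WT cluster 10, and only 1 of 10 neighbouring steps overlapped in each genotype. *Plk2* was highest in cluster 11 in both genotypes, at 701 and 838 CPM, and lowest in the LP clusters, at 120 CPM in WT cluster 2 and 131 CPM in mutant cluster 1, with the libraries of clusters 1 and 2 overlapping in both genotypes. *Casp2* ran the other way, with its highest levels in the LP clusters 2 and 1, at 38.8 and 33.7 CPM in WT, where their libraries overlapped, and 40.8 and 34.6 CPM in the mutant. In WT cells its level in LP against ML was a log2 ratio of 1.07 (0.88 to 1.26), whereas that of *Tgm2* was −2.61 (−2.67 to −2.55) and that of *Plk2* was −2.07 (−2.16 to −1.98).

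The share of cells with a UMI was taken with each luminal cell thinned to 1000 UMIs, since the mutant cells were deeper, which left out 45 WT and 248 mutant cells. A *Sgk1* UMI was found in 11.2% of WT and 16.7% of mutant cells, against 30.1% and 43.0% without thinning. For *Rgs2* the thinned shares were 3.82% and 7.41% and for *Wdfy1* 3.53% and 5.77%. *Tgm2* was found in 57.5% and 62.8% of thinned cells, *Plk2* in 32.8% and 34.3% and *Casp2* in 1.88% and 2.22%. All 6 shares were higher in the mutant. In clusters 12 and 13, labelled as rare, the thinned WT shares were 20.9% and 4.82% for *Sgk1*, 4.65% and 20.5% for *Rgs2* and 48.8% and 18.1% for *Tgm2*. They were 4.65% and 4.82% for *Wdfy1*, 34.9% and 4.82% for *Plk2* and 2.33% and 2.41% for *Casp2*, from 43 and 83 cells. The WT luminal share of *Tgm2* alone was above both, those of *Sgk1* and *Plk2* were below that of cluster 12, and those of *Rgs2*, *Wdfy1* and *Casp2* were below both. For each gene the interval of counting error of the cluster 12 share included the WT luminal share. In cluster 13 the interval left it out only for *Rgs2* (12.4% to 30.8%), *Tgm2* (10.5% to 28.0%) and *Plk2* (1.33% to 11.9%). The order of the other shares is therefore not settled by these cells. The median depth of the WT cells of clusters 12 and 13 was 1985 and 1899 UMIs against 3404 in WT luminal cells, and free RNA was not separated from expression.

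**Figure D4:**
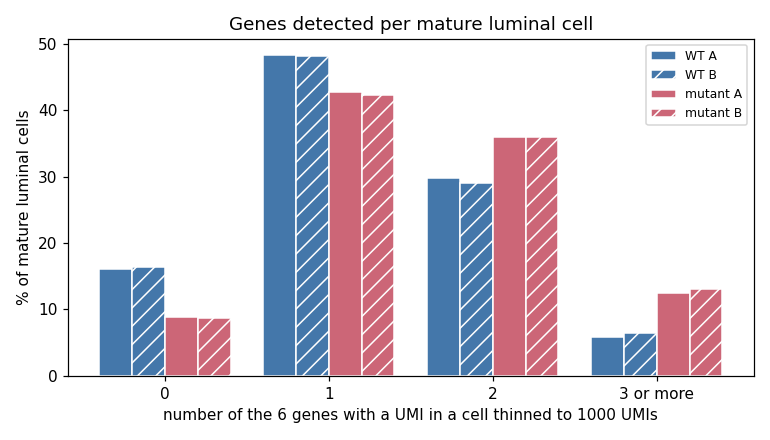
Share of ML cells (y axis, %) by the number of the 6 genes with a UMI after thinning to 1000 UMIs (x axis), with 1 bar per library, WT in blue and mutant in red. Cells with 3 or more of the genes make up 5.82% and 6.50% of the WT libraries and 12.4% and 13.01% of the mutant libraries.

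Among thinned ML cells, the mean number of these genes with a UMI was 1.26 in each WT library and 1.53 and 1.55 in the mutant libraries. Cells with none of them were 16.1% and 16.4% of WT and 8.86% and 8.77% of mutant ML cells, as the plot of genes per ML cell shows. *Tgm2* was the gene found most often, in 66.0% of WT and 75.4% of mutant thinned ML cells. In WT cluster 11 its share was 47.3%, and that cluster held 2863 of 14188 WT and 670 of 9612 mutant ML cells. The part of this mix in the counts per cell was not tested. In LP cells the mean numbers were closer, at 0.43 and 0.42 in WT against 0.46 and 0.47 in the mutant.

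Luminal cells were also split into 5 bins by their UMIs, a split added after the data had been seen. The log2 ratio stayed above 0 in each bin for *Sgk1* (0.37 to 0.88), *Rgs2* (0.77 to 1.19), *Wdfy1* (0.53 to 0.92), *Tgm2* (0.16 to 0.33) and *Casp2* (0.01 to 0.41). For *Casp2* the interval of counting error lay above 0 only in bin 2, at 0.41 (0.10 to 0.72). *Plk2* stood at −0.40 (−0.50 to −0.29) in the lowest bin, with 364 CPM in WT and 276 CPM in the mutant, and at 0.01 to 0.24 in the other 4. In that lowest bin LP cells, in which *Plk2* is low, were 49.1% of the WT and 61.8% of the mutant cells, and cells of cluster 11, in which it is high, were 14.3% and 1.66%. The part of this mix in the *Plk2* ratio was not tested.

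**Figure D5:**
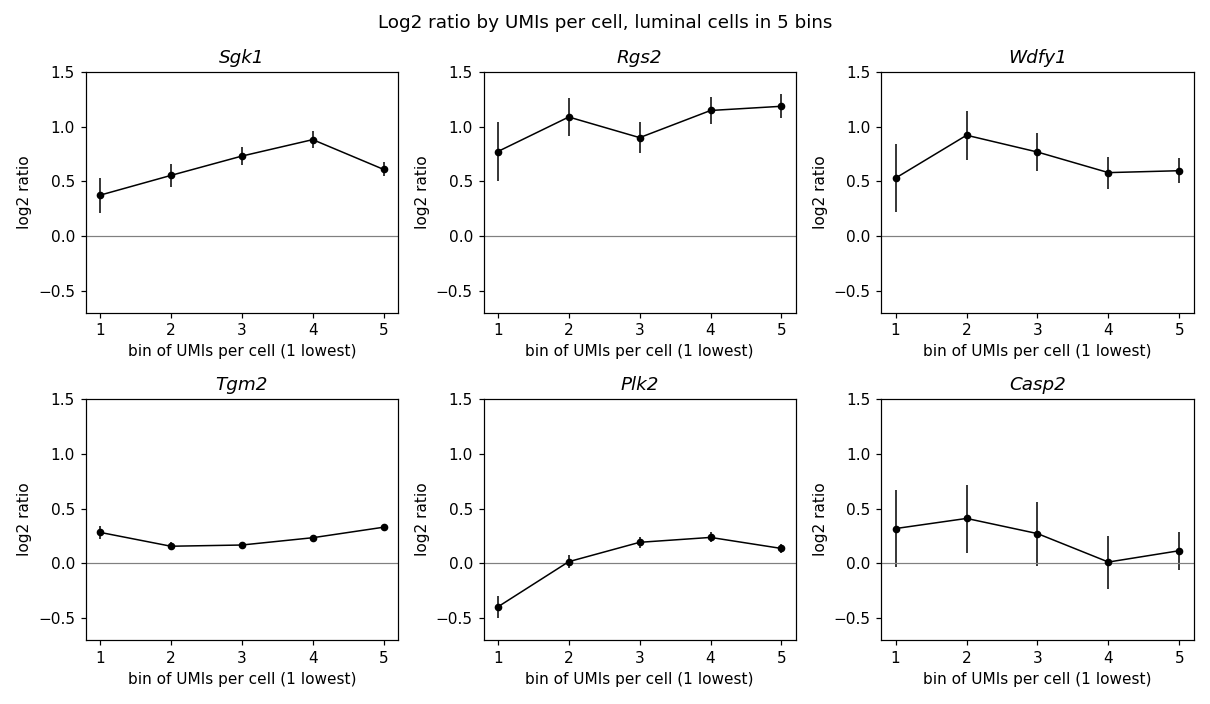
Log2 ratio of CPM, mutant over WT (y axis), in 5 bins of luminal cells by UMIs per cell (x axis, 1 the lowest), with bars for the 95% interval of counting error and a line at 0. *Plk2* in bin 1, at −0.40, is the 1 point whose interval lies below 0.

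Other genes of the same families and pathways are given from lists, with the number called of those with enough UMIs over all luminal cells. Among all genes 3.27% were called higher and 1.2% lower there, so a count of 0 or 1 in lists of this size is near that background and is no result about a list. Of 17 SGK-related genes (kinases, their activators and substrates) none was called, with a median log2 ratio of 0.00. *Slc9a3r2*, a scaffold of ion transporters, stood at 148 and 146 CPM in WT and 135 and 136 CPM in the mutant. None of 12 genes of the glucocorticoid receptor and its known targets was called, and *Zfp36*, whose product destabilises mRNA, was lower at a log2 ratio of −0.25 (−0.27 to −0.23). None of 7 other RGS genes and none of 10 G alpha genes was called. *Rgs19* was at 15.8 and 15.6 CPM in WT and 15.8 and 16.0 CPM in the mutant, and *Gnas*, the gene of Gs alpha, was at 1024 and 1041 CPM in WT and 1007 and 1051 CPM in the mutant.

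None of 11 genes of early endosomes and Toll-like receptor signalling was called, with *Eea1*, a tether of early endosomes, at 0.02 (−0.05 to 0.09). *Tgm1*, the only other transglutaminase gene with enough UMIs, stood at 0.10 (−0.02 to 0.21), and none of 8 genes of retinoic acid, a known inducer of *Tgm2*, was called. None of 4 other Polo-like kinase genes was called, with *Plk1* at 0.11 and *Plk3* at 0.09. None of 20 p53 target genes was called either, and *Btg2*, a gene that slows the cell cycle, was lower at −0.29 (−0.30 to −0.28) while *Bax*, which promotes cell death, was at 0.09 (0.06 to 0.11). Of 11 caspase and PIDDosome genes *Casp4*, an inflammatory caspase, was called lower, with 1.26 and 1.8 CPM in WT and 1.14 and 0.87 CPM in the mutant.

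Genes that cells switch on during tissue dissociation (immediate-early and heat-shock genes) had lower summed levels in the mutant over all luminal cells. The 25 genes of this list summed to 29115 and 29854 CPM in the WT libraries and to 24656 and 25351 CPM in the mutant libraries, with a median log2 ratio of −0.18, and none was called over all luminal cells. *Fos* and *Jun*, subunits of the AP-1 transcription factor, stood at −0.24 (−0.25 to −0.24) and −0.32 (−0.33 to −0.32). Without the 10% of cells of each library with the most of these UMIs, the log2 ratios of *Sgk1*, *Rgs2* and *Wdfy1* were 0.64, 1.06 and 0.66.

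Within LP cells, ML cells and cluster 11 a few genes of these lists were called, and they are named here after their values were seen. In LP cells 3 of the 25 dissociation genes were called, against 2.23% of all genes higher and 0.606% lower. *Hspa8* and *Hspa1b*, which encode chaperones, were higher, at log2 ratios of 0.59 (0.48 to 0.69) and 0.60 (0.04 to 1.17), and *Klf2*, a transcription factor gene, was lower at −0.76 (−0.86 to −0.66), while the median of the list was −0.23. In ML cells *Casp4* was called lower, at −0.77 (−1.52 to −0.06). In cluster 11 *Bbc3*, which promotes cell death, was the 1 of 12 p53 target genes called higher, at 15.2 and 12.97 CPM in WT and 21.3 and 25.6 CPM in the mutant, a log2 ratio of 0.75 (0.28 to 1.21). The median of those 12 genes was 0.20 against −0.03 over all genes of cluster 11, of which 0.937% were called higher and 3.99% lower. The sum over all 20 genes of that list went the other way, at 2835 and 2864.5 CPM in WT and 2651 and 2763 CPM in the mutant. The UMI minimum keeps weak genes there more readily if they are lower in the mutant, which also lowers the −0.03 and the 0.937%. *Rgs11*, *Gna14* and *Tlr3* were called lower in cluster 11, each from 11 to 14 mutant UMIs. Their log2 ratios were −0.68 (−1.75 to 0.24), −0.86 (−1.78 to −0.04) and −0.72 (−1.65 to 0.10), and the intervals of *Rgs11* and *Tlr3* include 0.

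Markers of other cells were summed over all luminal cells. Basal markers summed to 21.1 to 24.3 CPM over the 4 libraries, immune markers to 8.40 to 11.5 CPM and endothelial markers to 1.21 to 1.60 CPM. Fibroblast markers summed to 12.8 and 12.03 CPM in WT and 5.49 and 4.28 CPM in the mutant. Most of that sum was *Dcn*, which was called lower, at 11.8 and 10.99 CPM against 4.19 and 2.98 CPM. No other fibroblast marker had enough UMIs, so the sum does not show a fall of the list. *Lyz2*, a myeloid marker, was called higher at 0.80 and 0.74 CPM against 1.17 and 1.61 CPM. By class, *Dcn* was also called lower in ML cells, at a log2 ratio of −1.78 (−2.02 to −1.55), and in cluster 11, at 33.5 and 37.5 CPM against 21.3 and 8.27 CPM, a log2 ratio of −1.33 (−1.89 to −0.82). *Cd74* was called higher in ML cells and *Fabp4* in LP cells, both likewise named after their values were seen. Adipocyte markers summed to 2.0 and 1.43 CPM in WT and to 2.28 and 2.30 CPM in the mutant. LP markers summed to 3758 to 4268 CPM over the 4 libraries in LP cells and to 70.1 to 75.8 CPM in ML cells, and ML markers to 886 to 965 CPM in LP cells and 7523 to 8130 CPM in ML cells, as the labels of the classes say. Proliferation markers summed to 280 and 287 CPM in WT and 308 and 313 CPM in the mutant, and the part of any of these lists in the levels of the 6 genes was not tested.

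The genes most like *Sgk1*, *Rgs2*, *Wdfy1*, *Tgm2* and *Plk2* were sought among 11677 genes over 22 profiles, those of 11 clusters in each genotype, by Pearson's r of log2(CPM + 1). The profiles share libraries and cell depth, and r is a description. They also hold both genotypes, and the 6 genes were chosen on the difference between these. The r values among the 6 therefore depend in part on that choice and support nothing. *Wdfy1* was the gene most like *Sgk1*, with r of 0.91, followed by *Krt13*, a keratin gene, at 0.89 and *Gm5637* at 0.86. *Gm5637* (0.89), *Rnaset2a* (0.88) and *Jdp2* (0.88), the gene of a repressor that binds AP-1 sites, were most like *Rgs2*. *Krt13* (0.85) and *Rpl27-ps3* (0.84) followed *Sgk1* for *Wdfy1*. *Atp13a3*, *Ptpn5* and *Hif1a* were most like *Tgm2*, each at 0.99, and *Rbms3* (0.98), *Vav3* (0.97) and *Nabp1* (0.97) most like *Plk2*. Among the 6, *Tgm2* and *Plk2* had r of 0.82, *Rgs2* and *Wdfy1* 0.81 and *Sgk1* and *Rgs2* 0.80, while *Casp2* had negative r with each of the other 5, from −0.23 with *Wdfy1* to −0.72 with *Plk2*. Over the WT clusters alone, the 3 genes most like *Tgm2* were the same and no gene was shared for the other 4.

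Leaving out cluster 11 lowered the luminal log2 ratio of *Wdfy1* to 0.55, under the 1.5-fold limit, and that of *Casp2* to 0.08, and raised that of *Plk2* to 0.16. *Sgk1* and *Rgs2* stood at 0.59 and 0.99 without it. With each cluster weighted by its WT share, the *Plk2* ratio was 0.19.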

How the data were processed

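Single-cell RNA was measured on the 10x Chromium platform in 4 libraries, 2 from each of 2 pools of 3 mice. Per the labels, the submitters' processing notes name CASAVA 1.8, bcl2fastq 2.20, GSNAP and GRCm38, and the study's methods name Partek Flow with Seurat at a setting of 0.6. Filters on cells and any removal of doublets are not given in the sources used here, and no cell was removed. The authors deposited a signal table in which the UMIs of each cell were multiplied by 1 factor, with the library, genotype, cluster and class of each cell. Within a cell, division by the lowest nonzero value gave whole numbers within 0.02 for 100% of 60853305 nonzero values, with a largest distance of 0.00989, and these were taken as UMIs.

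UMIs were summed over cells per library or genotype and divided by all UMIs of those cells (CPM). No test was made between genotypes and no p-value was computed, since each genotype was 1 pool. Intervals were 95%, exact conditional binomial for ratios and log-normal for differences of ratios, and cover counting error only. Shares were taken with and without thinning to 1000 UMIs. The fold rule was tested on simulated data with 2-fold changes in well-counted genes, and not at its own limits of 1.5-fold and 50 UMIs. The genes named were the 6 genes, *Erbb3*, up to 4 called genes of each list or otherwise genes among its 2 with the most UMIs, and the 3 genes most like each of the 6 among those with at least 500 UMIs (those most like *Casp2* are not reported here). The 6 genes, the lists and the rules were chosen with earlier results of these data known. Alternatives were leaving out a library, cells or clusters, other scalings, other limits and the split by depth, which was added after the data had been seen. Gene positions are those of GRCm38 (GENCODE vM21), and promoter sequences are those of RefSeq. Python 3.11.15 was used with numpy 2.4.6, pandas 2.3.3, scipy 1.17.1 and matplotlib 3.10.9.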

Additional observations from a re-analysis of the deposited data

Results flagged for a closer look

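*Casp2* differed in direction among ML clusters. Both mutant libraries lay below both WT libraries in cluster 4, at a log2 ratio of −0.28 (−0.71 to 0.13) from 119 WT and 82 mutant UMIs, and in cluster 7, at −0.18 (−0.46 to 0.09) from 230 and 210 UMIs. They lay above them in clusters 3, 9, 10 and 11. The difference between clusters was not tested, and the intervals of counting error in clusters 4 and 7 include 0.

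In cluster 12, one of the rare populations outside the luminal clusters, with 43 WT and 33 mutant cells, *Sgk1* stood at 307 and 210 CPM in the WT libraries and at 631 and 739 CPM in the mutant libraries. The log2 ratio was 1.46 (0.76 to 2.19), from 28 and 48 UMIs. *Rgs2* in the same cells had 2 WT and 7 mutant UMIs and a log2 ratio of 2.49 (0.10 to 5.79), with the mutant UMIs in 6.06% of 33 cells. *Tgm2* was lower there, at −0.77 (−1.37 to −0.20) from 96 and 35 UMIs, although its libraries overlapped. *Wdfy1* was at −0.64 (−4.03 to 1.97), *Casp2* at −0.90 (−6.61 to 2.74) and *Plk2* at 0.33 (−0.25 to 0.91).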

How the results depend on the processing

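No paired analysis was made, because each genotype was 1 pool and the signal table does not link its libraries to the replicate numbers of the samples. Over all luminal cells the log2 ratios of the 6 genes kept their sign in 78 alternatives, and 61 of these moved them by less than the spread between pairs of libraries. Leaving out 1 library could not change a sign, because both mutant libraries lay above both WT libraries for all 6 genes. The spread was taken from the same libraries, so staying within it was close to fixed for those alternatives too. The split by depth is not among the 78, and *Plk2* was at −0.40 in its lowest bin. Leaving out 1 library at a time gave 0.59 to 0.70 for *Sgk1*, 1.03 to 1.11 for *Rgs2*, 0.67 to 0.69 for *Wdfy1*, 0.25 to 0.29 for *Tgm2*, 0.04 to 0.12 for *Plk2* and 0.15 to 0.19 for *Casp2*. For *Plk2* the value was 0.04 without mutant library B and 0.06 without WT library A. Thinning to 1000 UMIs gave 1.00 for *Rgs2*, 0.72 for *Wdfy1* and 0.23 for *Casp2*. Means over cells gave 0.72 for *Wdfy1*, 0.25 for *Tgm2* and 0.22 for *Casp2*. Scaling by the median log2 ratio, which moved the genotypes by 0.02 against each other, gave 0.66 for *Wdfy1* and 0.25 for *Tgm2*. Without cluster 11 the values were 0.99 for *Rgs2*, 0.55 for *Wdfy1*, 0.21 for *Tgm2*, 0.16 for *Plk2* and 0.081 for *Casp2*. Without cluster 3 *Wdfy1* was at 0.70. Weighting by WT shares gave 0.73 for *Wdfy1*, 0.24 for *Tgm2* and 0.19 for *Plk2*. The cause of these shifts was not tested.

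At a fold of 2, 1 of the 6 genes was called in luminal cells, 0 in LP, 1 in LI, 1 in ML and 4 in cluster 11. A minimum of 200 UMIs left 3 in cluster 11. In LP cells, leaving out 1 library gave −0.0062 to 0.15 for *Plk2* and −0.0028 to 0.11 for *Casp2*, each lowest without WT library A. There *Rgs2* was at 0.11, *Tgm2* at 0.096, *Plk2* at −0.18 and *Casp2* at 0.30 when thinned, and *Rgs2* was at 0.37 and *Casp2* at −0.0067 without the cells with the most immediate-early UMIs. In cluster 11 *Casp2* was at 0.68 to 1.29 with 1 library left out. In ML cells *Plk2* was at 0.20 when weighted by WT shares and 0.082 without mutant library B.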
